A study of Mus musculus with 11 samples.

Results

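The clustered protocadherin genes were taken as all genes on chromosome 18 of the mouse whose symbols begin with Pcdha, Pcdhb or Pcdhg in the RefSeq gene table of assembly GRCm38 (mm10). These were 58 of 49554 genes on chromosomes 1 to 19 and X: 14 in the alpha cluster, 22 in the beta cluster and 22 in the gamma cluster. With 1 kb added on each side, the genes spanned chr18:36929285-37842873, a stretch of 914 kb with 11077 CpGs. The alpha cluster lay at 36929285 to 37189897, the beta cluster at 37263998 to 37522419 and the gamma cluster at 37660775 to 37842873. The Pcdhgb8 gene is annotated as a transcribed pseudogene and was kept, since its symbol fits.

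The data came from CUT&Tag-BS, in which an antibody brings a transposase to a histone mark, the enzyme cuts out the marked DNA, and bisulfite then shows which CpGs of those fragments were methylated. The cells were E14 mouse embryonic stem cells of 129/Ola background, kept in serum with leukemia inhibitory factor, and the labels name no treatment or genetic change. Bisulfite libraries were made for H3K4me1, H3K9me3 and H3K27me3 from 250000 cells, with further H3K27me3 libraries from 100000, 20000 and 4000 cells, and each mark had 1 control library without bisulfite from 250000 cells. The H3K4me1 and H3K9me3 libraries were sequenced as run 1 (35-bp reads) and run 2 (75-bp reads), which makes 11 samples in all. A call is 1 read of 1 CpG, and the level is the percentage of calls that were methylated. A level therefore describes the fragments that an antibody recovered, not all copies of the locus, and whether an intermediate level came from a mixture of cells, alleles or fragments cannot be told apart. Expression was not measured, so neither the cell identity nor the activity of the genes could be checked.

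Clustered protocadherins are adhesion proteins of neurons, and the combination that a neuron makes gives its surface an identity by which its own branches recognise and avoid each other. In the alpha and gamma clusters each variable exon has its own promoter and encodes the extracellular, transmembrane and first intracellular part, and it is spliced to constant exons that all genes of the cluster share. Beta genes consist of a single exon. The alternate genes are chosen largely at random in each neuron, a choice in which promoter DNA methylation and the insulator protein CTCF take part, whereas most C-type genes (Pcdhac and Pcdhgc) are used more uniformly. H3K27me3 is the mark of Polycomb repression, H3K9me3 that of heterochromatin, and H3K4me1 that of enhancers and promoter flanks.

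The bisulfite libraries held 378056 to 37177077 CpG calls, the fewest from 4000 cells and the most from 250000 cells of H3K27me3. No mark had a replicate library. At CpGs called once in each run, run 1 and run 2 had the same state at 97.6% of sites for H3K4me1 and 95.9% for H3K9me3, against 77.4% and 83.5% for 2 calls within run 2, so the runs were treated as repeat reads of the same library. Run 2 and the 250000-cell H3K27me3 library were used as the main libraries, and tests between them compare these libraries, not the marks. The interval was well covered: 72.4% of its CpGs had a call in the 250000-cell H3K27me3 library, against 27.8% of all CpGs. It held 12.1 CpGs per kb (12.4 in alpha, 11.1 in beta and 18.8 in gamma), against 8.30 in the genome.

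The 3 clusters carried the marks in different proportions. To compare libraries of unlike depth, the calls per CpG in a region were divided by the mean calls per CpG of the same library on chromosomes 1 to 19 and X, so that 1 is the genome mean; this is called the relative call density. In the 250000-cell H3K27me3 library it was 6.28 in alpha, 8.76 in beta and 13.7 in gamma. The order of the clusters was the same in the libraries from 100000 cells (5.86, 8.03 and 12.2), 20000 cells (5.15, 6.93 and 10.3) and 4000 cells (4.19, 4.97 and 8.92), while each value was lower with fewer cells. The H3K9me3 density was 5.29 in alpha, 0.491 in beta and 0.846 in gamma in run 2, and 5.76, 0.468 and 1.15 in run 1. H3K4me1 density was 0.279 in alpha, 0.415 in beta and 4.09 in gamma in run 2, and 0.242, 0.409 and 3.74 in run 1. H3K27me3 was thus above the genome mean in all clusters, H3K9me3 clearly so in alpha and H3K4me1 in gamma.

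The methylation level went with the mark as well as with the cluster. In the H3K27me3 library from 250000 cells it was 36.2% of 35456 calls in alpha (95% Wilson interval 35.7 to 36.7%), 41.4% of 43532 in beta (40.9 to 41.9%) and 26.3% of 81943 in gamma (26.0 to 26.6%), against 32.5% in the genome. From 100000 cells the levels were 36.7, 41.9 and 26.0%, from 20000 cells 39.7, 42.3 and 24.5%, and from 4000 cells 43.8, 39.4 and 24.8%, the last on 240 to 540 calls. Gamma had the lowest level in all 4 libraries, whereas the order of alpha and beta was reversed in the 4000-cell library. The H3K9me3 level in run 2 was 84.1% of 5058 calls in alpha (83.1 to 85.1%), 62.1% of 414 in beta (57.3 to 66.6%) and 50.4% of 855 in gamma (47.1 to 53.8%), against 81.9% in the genome, and in run 1 it was 85.3, 70.4 and 47.3%. Coverage of single CpGs was thin in beta and gamma, where only 6 and 10 CpGs had at least 5 calls in run 2, against 381 in alpha. Over those CpGs the H3K9me3 level was 86.6% in alpha, 92.3% in beta and 84.2% in gamma, and the last 2 values describe those few CpGs only. For H3K4me1 it was 27.7% of 411 calls in alpha, 28.8% of 538 in beta and 21.3% of 6356 in gamma in run 2, against 32.5% in the genome, and 24.9, 32.3 and 21.6% in run 1. Intervals cover counting error only, since calls on a fragment and amplified copies are not independent. The mean of the single CpGs' levels, which counts each covered CpG once, was higher in H3K27me3: 54.4% in alpha, 55.6% in beta and 38.9% in gamma, so the CpGs with many calls were the less methylated ones.

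**Figure D1:**
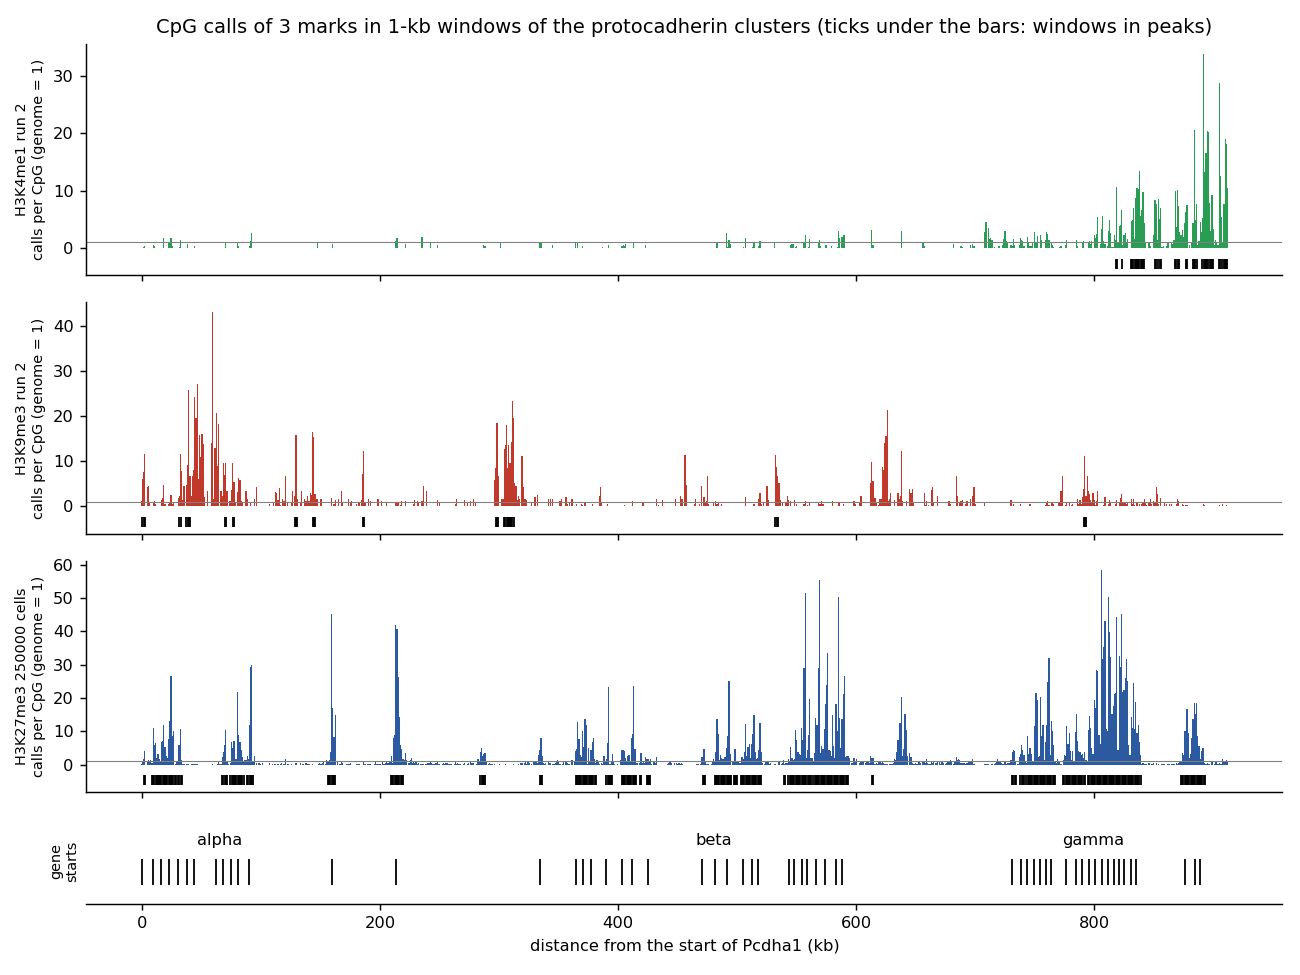
Relative call density (y axis, genome mean 1, linear) of H3K4me1 run 2, H3K9me3 run 2 and H3K27me3 from 250000 cells in the 914 windows of 1 kb, by distance from the start of Pcdha1 (x axis, kb), with the windows touched by a peak ticked under the bars and the gene starts at the bottom. H3K27me3 bars stand over all 3 clusters, 37 of the 71 windows with H3K9me3 above 5 times the genome mean lie in alpha and 25 between clusters, and the H3K4me1 peaks all lie in gamma.

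The peak lists, which hold positions without scores, gave the same distribution. A 1-kb window was counted where a peak touched it by at least 1 bp. The H3K27me3 peaks of the 250000-cell library touched 331 of the 914 windows (36.2%), against a background of 3.73% of all genome windows. They touched 68 of 261 windows in alpha, 137 of 260 in beta and 118 of 183 in gamma. The widest was a block of 44250 bp at 37725163 to 37769412 in gamma, which ran over the starts of 9 genes from Pcdhga8 to Pcdhga12. H3K9me3 peaks of run 2 touched 39 windows, a share of 4.27% against a background of 2.77%, and 21 of them were in alpha, 3 in beta, 3 in gamma and 12 between clusters. H3K4me1 peaks of run 2 touched 47 windows, a share of 5.14% against a background of 3.41%, and all 47 were in gamma. Of the windows with H3K9me3, 10 also had H3K27me3 (8 in alpha and 2 in gamma) and 29 did not. No window had both H3K4me1 and H3K9me3, but only 3 of the 183 gamma windows had H3K9me3, so this cannot show that the marks exclude each other. H3K4me1 and H3K27me3 shared 21 windows, all in gamma, where 118 of 183 windows had H3K27me3 and 26 had H3K4me1 without either other mark. The share of such overlaps over all genome windows was not counted. The H3K27me3 list from 4000 cells, with 492 peaks in the genome, had none in the interval, while that from 20000 cells touched 171 windows.

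Most gene starts had H3K27me3. The start was taken as the lower coordinate, as the clustered genes are read in that direction, with 1 kb on each side. A peak of the 250000-cell H3K27me3 library lay within 1 kb of 54 of 58 starts, against 25.5% of 17274 other protein-coding genes: 10 of 14 in alpha, 22 of 22 in beta and 22 of 22 in gamma. The control library without bisulfite also had 54, against 27.8% of other genes, with Pcdha1 gained and Pcdhb8 lost. The starts without an H3K27me3 peak were Pcdha1, Pcdha6, Pcdha7 and Pcdha8. By call density, 10 of 14 alpha, 19 of 22 beta and 22 of 22 gamma starts lay above 2 times the genome mean of this library, against 21.7% of other genes. Many CpG-rich starts outside the clusters carry H3K27me3 in these cells too: for Hox genes, the standard Polycomb targets, 22 of 22 starts with a known strand passed the same limit.

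At the starts of Pcdha6, Pcdha7 and Pcdha8 H3K9me3 was found in place of H3K27me3. The peaks of H3K9me3 run 2 lay within 1 kb of 2 of 58 starts, Pcdha1 and Pcdha6, against 1.55% of other genes. In the run 1 list there were 4 (Pcdha6, Pcdha7, Pcdha8 and Pcdha10, background 1.01%) and in the control without bisulfite 4 (Pcdha6, Pcdha7, Pcdha8 and Pcdha9, background 0.944%). The run 2 list thus missed Pcdha7 and Pcdha8, although these had the densest H3K9me3 calls of all members in that run. By call density, 8 of 14 alpha, 0 of 22 beta and 2 of 22 gamma starts lay above 2 times the genome mean of H3K9me3 run 2, against 6.24% of other genes. The 2 in gamma were Pcdhga8 at 3.50 and Pcdhgb4 at 2.82, and 5 gamma starts passed in run 1.

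The Pcdha8 start held 316 calls in H3K9me3 run 2, a relative density of 17.0, of which 87.7% were methylated, and 96 calls in run 1, a density of 16.3, of which 88.5% were methylated. In H3K27me3 it had 0 calls from 250000 cells, 10 calls from 100000 cells, 9 from 20000 cells and 0 from 4000 cells. No other member start was empty in the deepest library. At Pcdha7 the H3K9me3 density was 20.9 in run 2 (352 calls, 53.7% methylated) and 14.8 in run 1 (79 calls, 46.8% methylated), with an H3K27me3 density of 0.282 on 28 calls. The Pcdha6 start had an H3K9me3 density of 7.25 in run 2 (107 calls, 77.6% methylated) and 10.9 in run 1 (51 calls, 82.4% methylated), and 9 H3K27me3 calls. Pcdha1, the first gene, had an H3K9me3 density of 5.67 in run 2 at 62.1% and 9.04 in run 1 at 79.5%, and an H3K27me3 density of 0.807 on 73 calls at 23.3%. It was not free of H3K27me3: from 1 to 2.5 kb downstream the density of that mark was 3.05 on 440 calls, beside 9.92 for H3K9me3 run 2. Pcdha6, Pcdha7 and Pcdha8 are neighbours, and Pcdha9, Pcdha10 and Pcdha11, which follow them, had both marks, with H3K9me3 densities of 8.43, 2.98 and 5.42 and H3K27me3 densities of 3.74, 6.03 and 13.2. Over the 14 alpha starts the 2 densities were inversely ordered (Spearman rho -0.78), but not over the 22 gamma starts (0.06). Over the 22 beta starts rho was -0.62. No beta start had 10 H3K9me3 calls, and their median H3K9me3 density was 0.0565 with a maximum of 1.23, so the beta value orders very few calls. These are descriptions across genes of 1 locus that share both libraries.

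**Figure D2:**
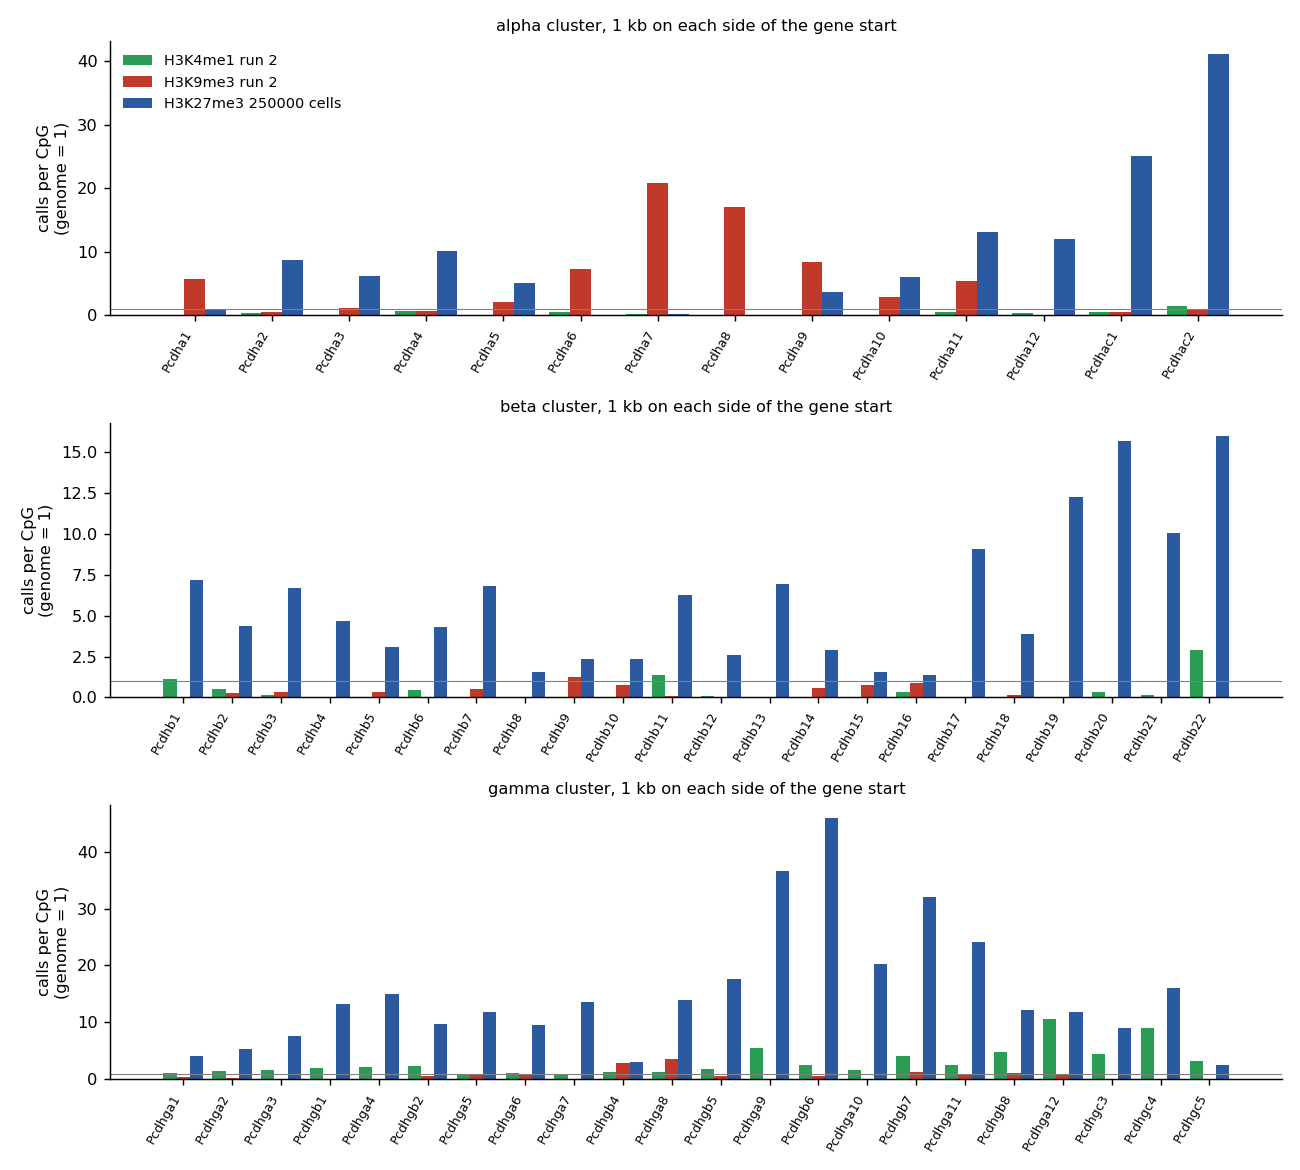
Relative call density (y axis, genome mean 1) within 1 kb of each gene start for H3K4me1 run 2, H3K9me3 run 2 and H3K27me3 from 250000 cells, with genes in order along the chromosome (x axis). H3K9me3 bars exceed H3K27me3 bars at Pcdha1, Pcdha6, Pcdha7, Pcdha8 and Pcdha9, and H3K27me3 is highest at Pcdhgb6 (45.9) and Pcdhac2 (41.1).

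The C-type genes of the alpha cluster had the densest H3K27me3 calls of the alpha starts, with few H3K9me3 calls. Sparse H3K9me3 was not particular to them: the alternate genes Pcdha2, Pcdha4 and Pcdha12 had H3K27me3 densities of 8.66, 10.1 and 12.1 and H3K9me3 densities of 0.493, 0.753 and 0. Pcdhac2, the last alpha gene, had an H3K27me3 density of 41.1 and a level of 5.75% of 7794 calls from 250000 cells, with 6.23% of 4399 calls from 100000 cells, 5.52% of 688 from 20000 cells and 0% of 25 from 4000 cells (3 calls of 25 would be 12.0%). Pcdhac1 had a density of 25.02 and levels of 28.5, 26.8, 27.8 and 9.52% in the same order, the last on 21 calls. The H3K9me3 density was 0.808 at Pcdhac2 (11.5% of 26 calls methylated) and 0.525 at Pcdhac1 (0 of 11 calls), the lowest H3K9me3 levels of the 12 alpha starts with at least 10 calls. Pcdhac2 was the lowest of the alpha starts in level, and Pcdha5 next with 8.37% of 406 calls. The highest were Pcdha9 with 35.4% of 280 calls and Pcdha7 with 32.1% of 28. The median of the 12 alpha starts with at least 10 calls was 22.6%.

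Beta starts were the most methylated in H3K27me3. Their median level was 49.0% from 250000 cells, with a range of 16.3 to 67.2%, against 22.6% in alpha, 14.8% in gamma and 5.83% over 11853 other protein-coding starts with at least 10 calls. Within 500 bp of the start the medians were 26.2% in beta, 13.8% in alpha and 4.52% in gamma. Within 250 bp they were 14.6% in beta, 10.01% in alpha and 2.70% in gamma. The 250-bp medians cover genes with at least 10 calls both there and from 1 to 2.5 kb downstream. The order of the clusters thus held, but beta lay less far above the others closer to the start. The beta start windows were also the poorest in CpGs, with a median of 29.5, against 54.5 in alpha and 53.5 in gamma. In these windows the highest levels were at Pcdhb19, with 67.2% of 619 calls from 250000 cells, 66.1% of 372 from 100000 cells and 67.1% of 82 from 20000 cells, and at Pcdhb12, with 63.0% of 127 calls. Within 250 bp of the start Pcdhb19 had 10.8% of 148 calls and Pcdhb12 41.7% of 24. With 1 kb on each side, the lowest levels were at the ends of the cluster. Pcdhb22, the last gene, had 16.3% of 946 calls from 250000 cells, 17.4% of 517 from 100000 cells, 18.5% of 108 from 20000 cells and 14.3% of 14 from 4000 cells. Pcdhb1, the first gene, had 23.6% of 674, 25% of 524, 10.3% of 78 and 0 of 5 calls. Pcdhb22 was the only beta start above 2 times the genome mean in H3K4me1 run 2, at 2.92, with 22.2% of 45 calls methylated. Pcdhb1 had 11.1% of 27 H3K4me1 calls methylated and Pcdhb11 21.1% of 19, and no other beta start had 10 calls of that mark.

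Gamma starts were the least methylated of the 3 groups, with 15 of 22 under 20% in H3K27me3. Among other protein-coding starts with at least 10 calls, 8541 of 11853 were under 20%, so the gamma share was no higher than theirs. Pcdhgb6 had the densest H3K27me3 calls of all members, at 45.9 with 6.40% of 4390 calls methylated, and the libraries from 100000, 20000 and 4000 cells gave densities of 38.6, 39.2 and 36.0 and levels of 5.75, 3.75 and 2.86%. Pcdhgb7 followed in number of calls, with 8.06% of 3400. The C-type genes held both ends of the range. Pcdhgc3 and Pcdhgc4 had the lowest levels, 2.28% of 1883 and 5.51% of 1961 calls, whereas Pcdhgc5, the last gene, had the highest of all members, 76.4% of 140 calls, with 73.3% of 105 from 100000 cells and 55% of 20 from 20000 cells. Pcdhgb4 came next in gamma with 49.5% of 277 calls. Closer to the start these levels were lower at Pcdhgc5, with 10% of 10 calls within 250 bp and 56.3% of 48 within 500 bp. Pcdhgb4 had 30.7% of 114 and 45.7% of 230 calls there. Pcdhgb4 also had the highest H3K9me3 level of the gamma starts, 75.6% of 45 calls, followed by Pcdhgb8 with 56.3% of 16, and Pcdhga5 the lowest, 5.88% of 17. The first gene, Pcdhga1, had 18.3% of 317 calls. Over the 56 member starts with at least 10 calls, windows with more CpGs had lower H3K27me3 levels (Spearman rho -0.76), again a description across genes that share a library. Within the clusters rho was -0.06 over 12 alpha starts, -0.48 over 22 beta starts and -0.68 over 22 gamma starts. The pooled value thus also holds differences between clusters, and the relation was not seen in alpha. The levels from 100000 and 250000 cells differed by a median of 1.92 points over the same 56 starts, and those from 20000 and 250000 cells by 4.37 points over 50.

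H3K4me1 was found near gamma starts at the downstream end. Peaks of H3K4me1 run 2 lay within 1 kb of 4 of 58 starts, Pcdhgb8, Pcdhga12, Pcdhgc3 and Pcdhgc4, against 15.6% of other protein-coding genes, and the control list without bisulfite had the same 4 genes, against 17.5%. Run 1 added Pcdhgc5. All 4 starts also had an H3K27me3 peak, but so did 22 of 22 gamma starts, so the overlap is not particular to these 4. By call density, 12 of 22 gamma, 1 of 22 beta and 0 of 14 alpha starts lay above 2 times the genome mean, against 28.9% of other genes. Pcdhga12 had a density of 10.6 at 5.97% of 201 calls, Pcdhgc4 8.95 at 9.51% of 284 calls, Pcdhgc3 4.37 at 4.24% of 236 calls and Pcdhgc5 3.27 at 44.9% of 49 calls. Pcdhgb6, the densest in H3K27me3, had an H3K4me1 density of 2.53 at 1.59% of 63 calls. Pcdhga7 had the second highest H3K4me1 level in gamma after Pcdhgc5, 33.3% of 18 calls. In alpha the most H3K4me1 calls were at Pcdhac2, with a density of 1.56 at 9.09% of 77 calls, and at Pcdha4, with 19 calls. The highest alpha level was 81.8% of 11 calls at Pcdha6 and the lowest 0 of 10 at Pcdha12.

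The shared 3' part of the gamma cluster carried H3K4me1 without much H3K27me3. From 2.5 kb beyond the start of Pcdhgc5 to the end of the genes, where the constant exons lie, the H3K4me1 density was 15.5 in run 2 (17.8% of 1767 calls methylated) and 15.8 in run 1 (18.9% of 914 calls). H3K27me3 was at 1.43 and H3K9me3 at 0.188. The widest H3K4me1 peak of the interval, 6616 bp at 37821476 to 37828091, began just before that stretch and reached into it. The matching stretch of alpha, beyond Pcdhac2, had an H3K4me1 density of 0.142 on 21 calls and an H3K27me3 density of 1.16 at 84.4% of 661 calls. In run 1 the alpha stretch had an H3K4me1 density of 0.0399 on 3 calls. The constant stretches of the 2 clusters thus differed in H3K4me1 density in both runs. These runs read the same library, so the spread between libraries is unknown.

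**Figure D3:**
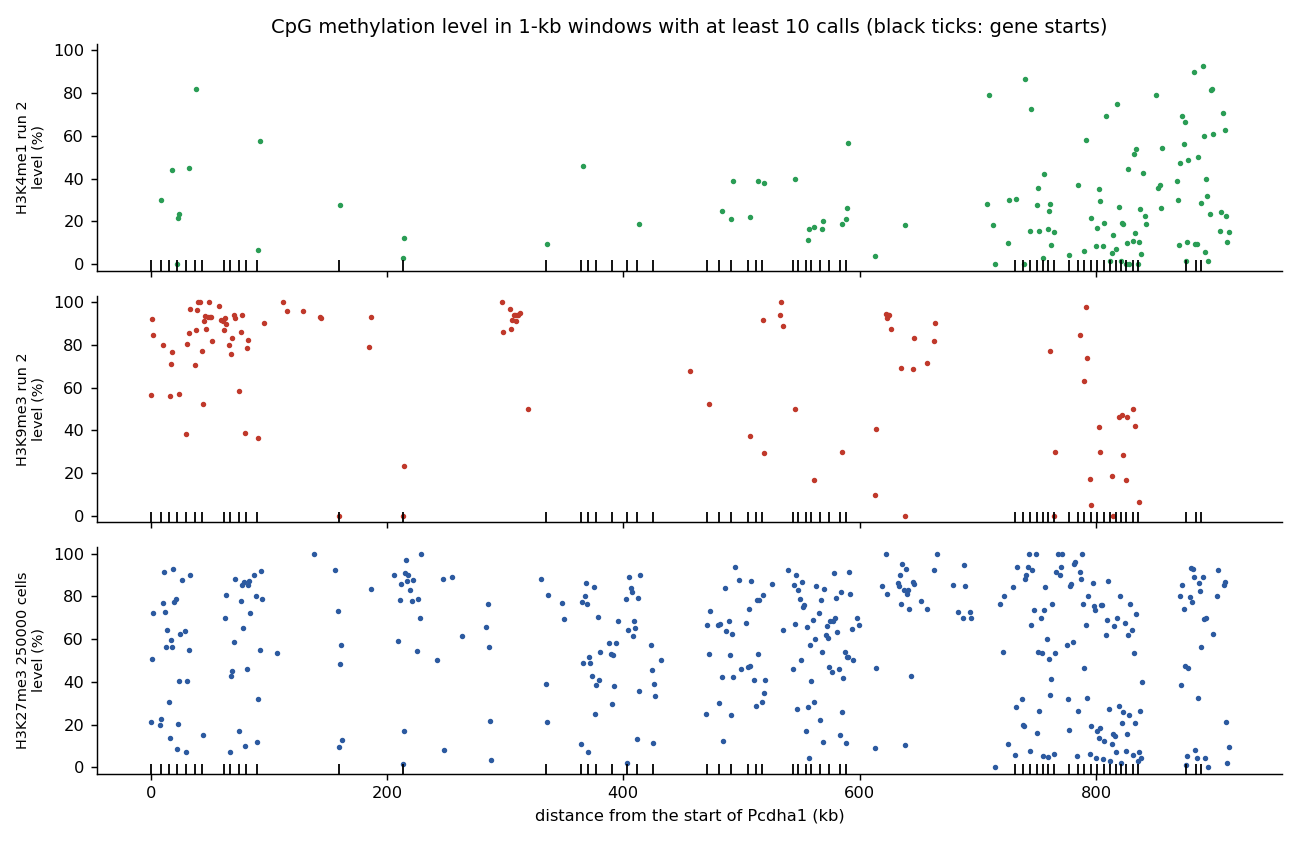
Methylation level (y axis, percent) of each 1-kb window with at least 10 calls, for H3K4me1 run 2 (127 windows), H3K9me3 run 2 (114 windows) and H3K27me3 from 250000 cells, by distance from the start of Pcdha1 (x axis, kb), with gene starts as black ticks. 36 of 56 H3K9me3 windows of alpha are above 80%, whereas H3K27me3 windows spread over the whole range in each cluster.

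Methylation was not even along the variable exons. In 500-bp steps around the alpha starts, the H3K27me3 level of 250000 cells was 4.46% just before the start and 12.1% just after it, then 26.9, 47.2, 50.6 and 63.8% in the following steps up to 2.5 kb, and 90.2% beyond it. In gamma it was 4.28% before and 3.88% after the start, then 25.9, 44.8, 30.0 and 33.9%. In beta it was 10.9 and 29.4%, reached 64.8 and 70.0% in the next steps, and was 43.6 and 26.97% from 1.5 to 2.5 kb, in genes of 2340 to 5271 bp. These levels are summed over calls, so genes with many calls weigh more. In the steps from 500 bp to 2.5 kb the median gamma gene with at least 10 calls had 36.6, 72.3, 67.1 and 63.2%. The median alpha gene had 41.3, 67.2, 59.2 and 69.0%, and the median beta gene 71.9, 76.3, 48.3 and 36.9%. Compared gene by gene, the level from 1 to 2.5 kb downstream was above that within 250 bp of the start in 12 of 12 alpha, 22 of 22 beta and 21 of 21 gamma genes with at least 10 calls in both, against 81.2% of other protein-coding genes. The median difference was 46.9 points in alpha, 29.0 in beta and 46.5 in gamma, against 34.7 in other genes.

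The density of H3K27me3 calls in beta was highest inside the exons, not at the start. In beta it was 6.60 and 5.97 in the steps next to the start and 7.25 and 8.71 in those from 500 bp to 1.5 kb. It was 18.1 and 24.98 in the steps from 1.5 to 2.5 kb, and 3.05 in the next step. Summed over the gamma genes it was 17.2 and 17.0 next to the start and 22.6 and 24.8 from 1.5 to 2.5 kb, but the median gamma gene had 13.1 within 500 bp of the start and 12.9 from 1.5 to 2.5 kb. More calls per CpG from 1.5 to 2.5 kb than within 500 bp of the start were found in 20 of 22 beta genes, 12 of 22 gamma genes and 9 of 14 alpha genes, against 28.5% of other genes. From 100000 and 20000 cells the beta count was again 20 of 22 in each, and the gamma count 11 and 10 of 22. Pcdhb19 had a density of 12.1 at the start and 50.6 downstream, where the level was 27.7% of 3877 calls. Pcdhb22 had 14.8 and 27.9, and the exceptions were Pcdhb1 with 8.91 and 1.15 and Pcdhb8 with 2.27 and 1.53. In alpha, the H3K9me3 density was highest in the step from 2 to 2.5 kb, at 11.7 with a level of 91.3%, while it was 6.67 at 65.5% just after the start. Paralogous exons are alike in sequence, and how many of their reads map to a single place was not tested.

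**Figure D4:**
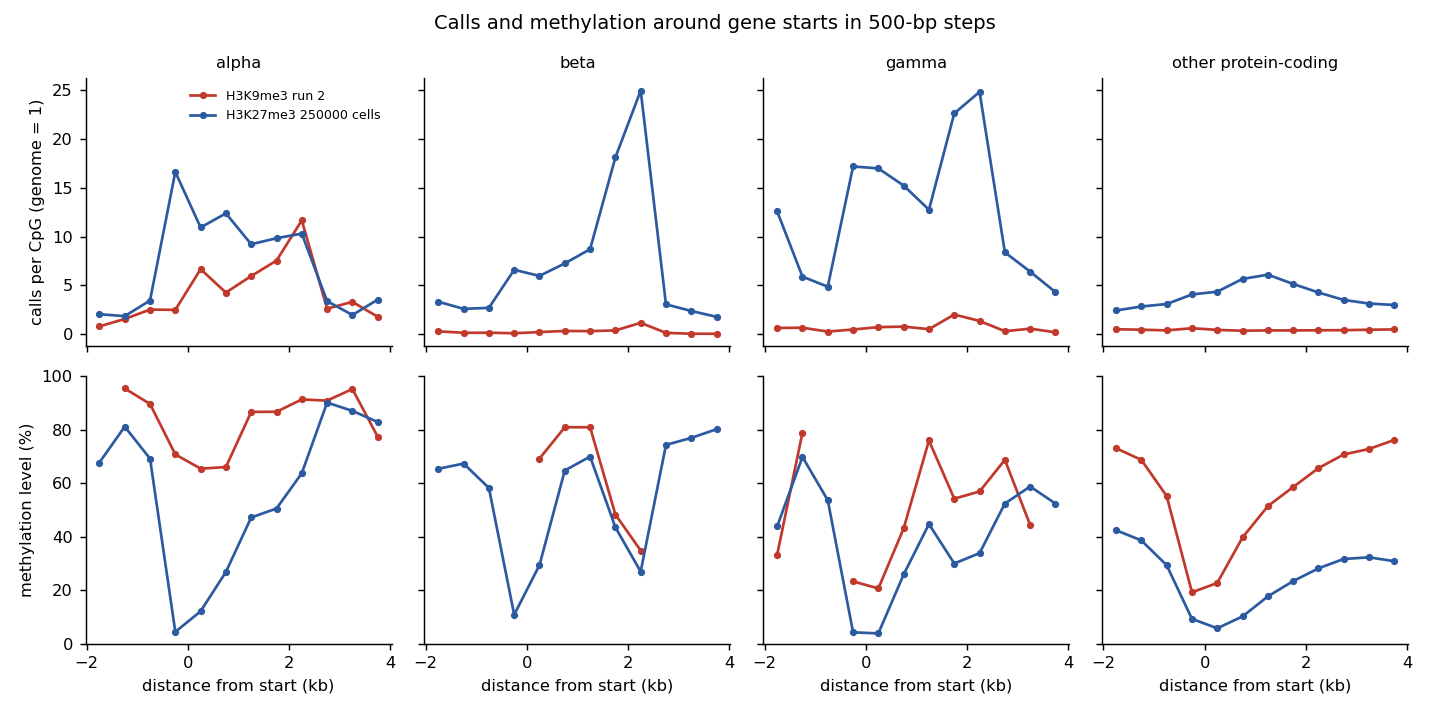
Relative call density (upper row, genome mean 1) and methylation level (lower row, percent; steps with at least 10 calls) of H3K9me3 run 2 and H3K27me3 from 250000 cells in 500-bp steps from 2 kb before to 4 kb after the gene start (x axis, kb), summed over the 14 alpha, 22 beta and 22 gamma genes and over 17274 other protein-coding genes. In the clusters the H3K27me3 level is lowest next to the start, and the summed calls of beta and gamma have a second maximum near 2 kb, which in gamma the median gene does not show.

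Whether fragments with H3K9me3 were more methylated than those with H3K27me3 at the same place was tested in 1-kb windows with at least 10 calls in both main libraries (Fisher's exact test, two-sided, Benjamini-Hochberg over 16623 windows of the genome; called at an adjusted p under 0.05 and a difference of at least 20 points). The test takes calls as independent, although several can come from 1 read and the handling of duplicates is not known, so its p-values are too small by an unknown amount and cover counting error between 2 libraries only. Of 69 windows tested in the interval, 18 were higher in H3K9me3, against a background of 2.50%, and 0 were lower, against 0.289%. There were 13 calls among 30 windows in alpha, 5 among 21 in gamma, 0 among 8 in beta and 0 among 10 between the clusters. The median difference was 18.3 points in the alpha windows and 11.5 in gamma, against 0 in the genome, and -3.24 in beta. The background itself depends on depth. With at least 20 calls 15 of 39 windows were higher in H3K9me3, against 7.55% in the genome, and with at least 5 calls 15 of 125, against 0.566%. Windows of the interval were not matched for depth to those of the genome, here or in the comparisons with H3K4me1 below. How much of the excess comes from depth was not tested.

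The 13 alpha windows lay at Pcdha1, Pcdha3, Pcdha5, Pcdha7, Pcdha9, Pcdha10 and Pcdha11, within 3 kb of the start. At Pcdha1, the window at 36931001 to 36932000 had 92.0% of 112 calls methylated in H3K9me3 and 50.7% of 150 in H3K27me3 (Fisher's exact test, adjusted p = 3.38e-11), and the window before it 56.6% of 76 and 21.4% of 70 (Fisher's exact test, adjusted p = 0.0016). At Pcdha9, the window at 36999001 to 37000000 had 83.1% of 142 and 45.2% of 713 calls methylated (Fisher's exact test, adjusted p = 5.98e-15). At Pcdha10, the window that holds the start had 58.1% of 43 and 17.1% of 479 (Fisher's exact test, adjusted p = 2.37e-06). In gamma the lowest adjusted p was in the window at 37722001 to 37723000, about 2 kb into Pcdhgb4, with 74.0% of 181 and 32.2% of 366 (Fisher's exact test, adjusted p = 7.24e-18). It overlaps the single H3K9me3 peak of that cluster, which the control without bisulfite also had and the run 1 list had not. The libraries do not cover the same CpGs equally, so the levels were also compared over CpGs called in both: the difference was then 25 to 42.2 points in the 18 windows. When the test itself used those CpGs, 15 of 68 windows were called, against a background of 2.70%. With run 1 and 100000 cells 10 of 40 windows were called, against 4.73%. With a difference of at least 40 points 7 of 69 were called, against 1.83%.

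**Figure D5:**
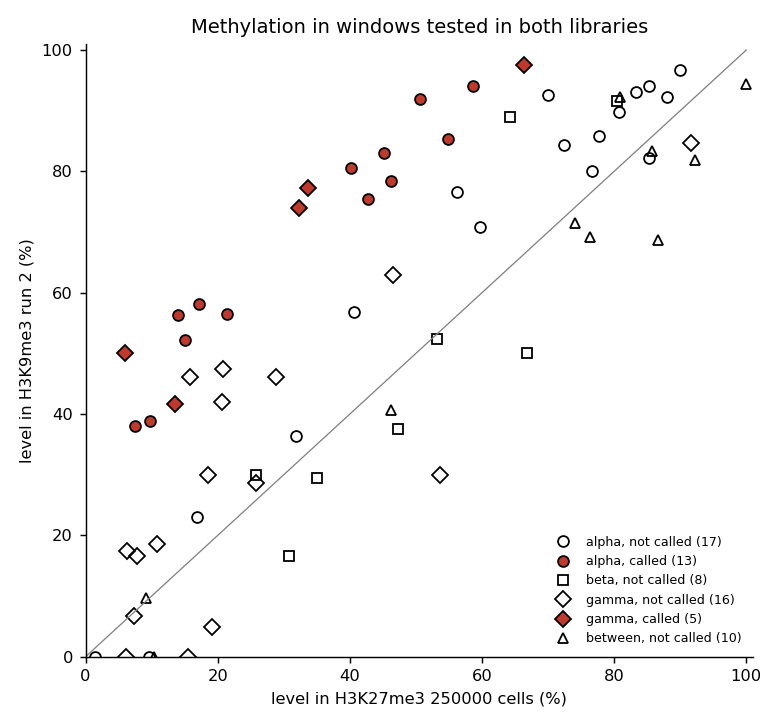
Methylation level in H3K27me3 from 250000 cells (x axis, percent) and in H3K9me3 run 2 (y axis, percent) in the 69 windows tested, with filled symbols for the 18 called windows, shapes for the cluster and a line of equal levels. The filled symbols are alpha and gamma windows above the line, while beta windows lie on both sides of it and no beta window or window between clusters is filled.

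Few windows could be tested against H3K4me1. Between H3K9me3 and H3K4me1, 6 of 31 windows were higher in H3K9me3, against a background of 6.78% of 14485, and 0 were lower, against 0.159%: 2 in alpha, downstream of Pcdha4 and Pcdha5, and 4 in gamma, downstream of Pcdhgb2 and Pcdhgb8 and 2 at Pcdhgb4. At Pcdha5, the window at 36962001 to 36963000 had 85.4% of 157 calls methylated in H3K9me3, 44.8% of 29 in H3K4me1 (Fisher's exact test, adjusted p = 0.000358) and 54.8% of 854 in H3K27me3. Over CpGs called in both libraries, 4 of the 6 differences were at least 20 points. When the test itself used those CpGs, 1 of 23 windows was called, against a background of 6.58%. With run 1, 10 windows had enough calls to be tested and 0 were called, against 7.33%. Neither share was above its background. Between H3K27me3 and H3K4me1, 104 windows were tested. Of these, 1 was higher in H3K27me3, against a background of 1.09% of 57920, and 1 was lower, against 0.463%, and the median difference was 1.71 points. The higher one, at Pcdhgb2, had 50.7% of 702 and 25% of 44 calls methylated, and the lower one, downstream of Pcdhgb5, 13.5% of 3476 and 35% of 80. Over CpGs called in both, the differences were 14.9 and -20.2 points. The counts rest on the settings, with 0 to 8 windows higher and 0 to 1 lower. With the thresholds used, the share called higher was near the background. With runs summed it was 8 of 120 windows against 2.13% of the genome's, and in 2-kb windows 7 of 86 against 3.94%.

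The stretch between alpha and beta had H3K9me3 peaks of its own. Between alpha and beta the H3K9me3 density was 5.45 in run 2 at 90.2% of 758 calls and 4.40 in run 1 at 83.5% of 194 calls, with an H3K27me3 density of 0.661. Its widest peak covered 8907 bp at 37234057 to 37242963. Between beta and gamma the H3K9me3 density was 1.95 in run 2 at 73.5% of 622 calls and 1.66 in run 1 at 67.3% of 168 calls. No H3K9me3 list had a peak there.

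Other loci gave a scale for these values. The 4 Hox clusters had H3K27me3 densities of 22.2 to 44.6 at levels of 11.7 to 13.9%, and H3K9me3 densities of 0.0592 to 0.204. All 3 protocadherin clusters thus had fewer H3K27me3 calls per CpG, a higher level and more H3K9me3 than each Hox cluster, differences that were not tested across replicate libraries. Of 12 protocadherin genes outside the clusters, 9 had a known strand. In H3K27me3 from 250000 cells, 7 of the 9 starts were above 2 times the genome mean, with a median level of 5.05%, and Pcdh7 had 0.590% of 4068 calls methylated. In H3K9me3 run 2, 0 of those 9 were above that limit. Of 9 genes known to act on clustered protocadherins, 8 had a known strand, and their starts had a median H3K27me3 level of 1.67%, with 3 above 2 times the genome mean (Smchd1, Dnmt3b and Wiz). The H3K27me3 density was 0.496 at Ctcf, the insulator gene, 0.810 at Setdb1, an H3K9 methyltransferase gene, 2.60 at Smchd1, a chromatin repressor gene, and 7.33 at Dnmt3b, a DNA methyltransferase gene, with 14.4% of 1671 calls methylated.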

How the data were processed

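The authors deposited a table with, for each of 21908008 CpGs, counts of methylated calls and of all calls in 8 bisulfite libraries, and peak lists (positions only) for 11 samples plus 1 unified list per mark, per the file headers and labels. The submitters' processing notes name build mm10 and cutadapt 1.12, Bismark 0.23.0, Bowtie2 2.3.0, HOMER 4.10.3 and bedtools 2.29.2, with no role stated; the handling of duplicates is not given in the sources used here. No other per-sample columns existed. Genes came from RefSeq GRCm38.p6. Levels, densities, Wilson intervals, windows and Fisher's exact tests were computed with Python 3.11.15, numpy 2.4.6, scipy 1.17.1 and numba 0.67.0, and the test code was tested on simulated data. Peak starts were converted to count from 1. The table gives no strand for the members, so starts are the lower coordinates. Named genes were the first and last of each cluster, C-type genes, the 2 highest and 2 lowest levels and the 2 with most calls per main library, plus genes with called windows. Members, lists and rule were chosen with earlier results of these data known, and the profiles around starts after seeing the data. The cells are 129/Ola, the reference C57BL/6J. Alternatives covered call minimum, shared CpGs, run, window size, threshold, peak list and start width. Sequences are not shown here.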

Additional observations from a re-analysis of the deposited data

How the results depend on the processing

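Of 147 alternatives, 97 kept the direction and side of the threshold or moved the value by less than its counting interval (counts by less than 1.5 times). The H3K9me3 density of gamma crossed the genome mean in run 1, and its level in beta and gamma crossed the genome's over CpGs with at least 5 calls (6 and 10 CpGs). Windows with H3K9me3 above H3K4me1 (6) numbered 1 of 23 over CpGs called in both libraries, 0 with run 1 (10 windows tested, against 31) and 3 of 31 at 40 points or more. The genome shares were 6.58, 7.33 and 4.70% in the same order. Windows with H3K9me3 above H3K27me3 (18) numbered 10 of 40 with run 1 and 100000 cells and 7 of 69 at 40 points, with genome shares of 4.73 and 1.83%. Windows with H3K27me3 above H3K4me1 (1) numbered 0 of 140 at 5 calls, 2 of 65 at 20 calls, 8 of 120 with runs summed, 7 of 86 in 2-kb windows and 0 of 104 at 40 points. The genome shares were 0.538, 1.30, 2.13, 3.94 and 0.696% in the same order. Those below (1) numbered 0 with run 1 and 100000 cells, in 2-kb windows and at 40 points, with genome shares of 0.311, 0.681 and 0.143%. As a mean over CpGs, levels were 26.9% for H3K4me1 in gamma, 79.1% and 46.5% for H3K9me3 in alpha and gamma, and 54.4, 55.6 and 38.9% for H3K27me3 in alpha, beta and gamma. Over CpGs with at least 5 calls they were 16.8% for H3K4me1 in gamma, 86.6, 92.3 and 84.2% for H3K9me3 and 34.97, 40.6 and 25.7% for H3K27me3. Beta gene bodies gave 48.1% for H3K9me3 and 40.7% for H3K27me3. Run 1 gave 85.3% and 70.4% for H3K9me3 in alpha and beta, and 100000 cells 36.7% for H3K27me3 in alpha. Densities in run 1 were 0.242 and 3.74 for H3K4me1 in alpha and gamma and 5.76 and 1.15 for H3K9me3, and with 100000 cells 5.86, 8.03 and 12.2 for H3K27me3. Peaks of at least 2000 bp touched 2.52% of windows for H3K4me1 and 2.41% for H3K9me3, cover of at least 50% gave 3.50% for H3K4me1 and 32.9% for H3K27me3, and 100000 cells gave 32.6%. For levels and densities the cause was not tested. The alternatives for gene starts within 1 kb of a peak, and for levels and calls downstream of the start, were added after seeing the data: H3K9me3 then had 4 starts in peaks. The median of chromosome 18 windows as a reference gave no value because it was 0. No paired analysis was possible because the numbers 1 and 2 mark sequencing runs of the same library, and each test compares single libraries. With 1 library per mark, the spread between cultures is unknown. H3K9me3 calls were few in beta and gamma, so differences there were often not detectable at this depth.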

Other observations

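The widest H3K4me1 peak, near the end of the gamma cluster, overlaps Gm29994, a long noncoding RNA gene at chr18:37827111-37830230. Between beta and gamma lie Slc25a2 (37637378 to 37638723) and Taf7 (37640491 to 37644204), which are not protocadherins.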
